A study of Homo sapiens with 10 samples.

Results

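The barcodes described here are the shallow droplets of doxorubicin-treated HCT-116 cells, divided by how much of their RNA came from mitochondria. HCT-116 is a human colon cancer line. In the 2 treated libraries (DOX replicates 1 and 2) cells were exposed to 200 nM doxorubicin, a DNA-damaging chemotherapy drug, for 24 h, and were collected 6 d after the drug had been washed out. The 2 untreated libraries received no drug. Single-cell RNA was captured at the 3′ ends of transcripts with the 10x Genomics system, and each molecule was counted once through its unique molecular identifier (UMI). All cells carry the label WT for genotype. Nothing in the labels says whether the 2 libraries of a condition came from separate cultures, so p-values speak only to these libraries. With 2 libraries, the spread behind the p-values was mostly borrowed across genes.

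A barcode was taken as shallow when it held fewer than 10000 UMIs. The members were thus chosen by 2 measured values, the UMI number and the mitochondrial share. A barcode was called rich when at least 8% of its UMIs came from genes whose symbol starts with MT-, and poor below that. The rule selected 12156 of the 23229 barcodes in the 4 libraries. Of these, 2123 were rich and 10033 were poor. DOX replicate 1 contributed 780 rich and 5230 poor barcodes, and DOX replicate 2 contributed 1343 and 4803. The rich share was therefore 13.0% in replicate 1 (95% exact binomial interval 12.1 to 13.9%) and 21.9% in replicate 2 (20.8 to 22.9%), a gap between the libraries that the counting error does not cover. Poor barcodes meet the limit on mitochondrial RNA that the original analysis set for its cells and rich barcodes do not. All values below for mitochondrial share and UMI number describe the rule itself and carry no test.

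Human mitochondria carry a small circular genome that encodes 13 proteins of the respiratory chain, and its messages are polyadenylated and so are captured with nuclear-encoded ones. A high share of mitochondrial transcripts is widely used in single-cell work as a sign of a damaged cell, because cytoplasmic messages can leak out while mitochondria stay behind. A droplet with few UMIs may hold a small or broken cell, a nucleus, or only RNA from the surrounding fluid. Comparing the nuclear-encoded RNA of rich and poor droplets addresses whether the mitochondrial limit divides shallow droplets into kinds with different RNA content.

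The shallow barcodes lay close to the lower edge of their libraries. Each DOX file holds 8000 barcodes, of which 6010 (75.1%) in replicate 1 and 6146 (76.8%) in replicate 2 were shallow. The lowest barcode held 1341 UMIs in replicate 1 and 1160 in replicate 2. Rich barcodes had a median of 1453.5 UMIs in replicate 1 and 1265 in replicate 2, and poor barcodes 1443 and 1228. The median mitochondrial share was 13.1% and 13.9% in rich barcodes against 0.853% and 1.01% in poor ones. Because more of their UMIs were mitochondrial, rich barcodes kept fewer nuclear-encoded UMIs, with medians of 1253 and 1078 against 1421 and 1205. Summed over barcodes, the rich groups held 1146105 and 1805850 nuclear-encoded UMIs and the poor groups 8739865 and 7155093. The 2 DOX libraries shared 24 of their 8000 barcode sequences.

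**Figure D1:**
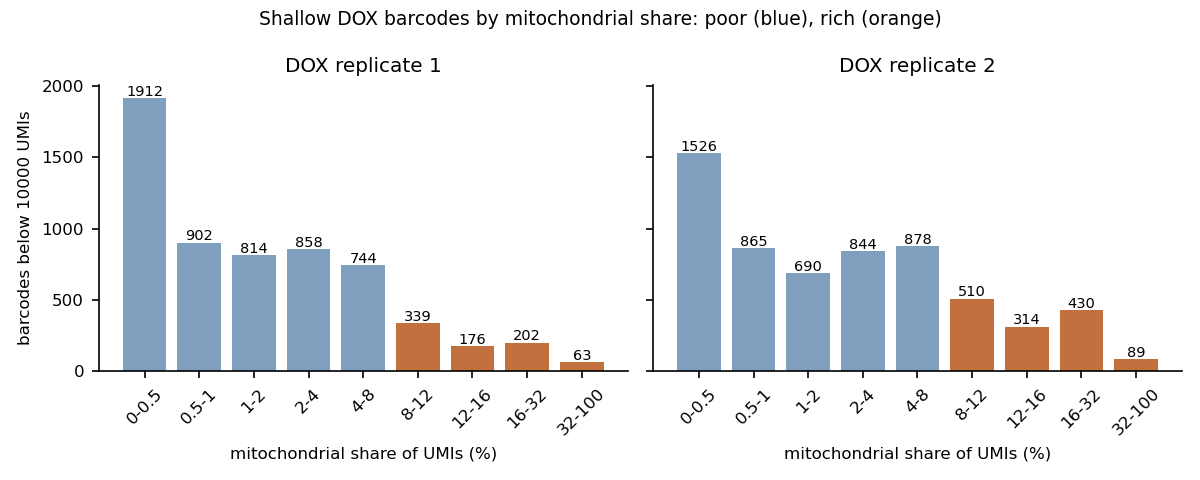
Number of shallow barcodes (vertical axis) in bins of mitochondrial share of UMIs (horizontal axis, in percent, bins of unequal width) in DOX replicates 1 and 2, with poor barcodes in blue and rich barcodes in orange. The lowest bin is the fullest in both libraries, with 1912 and 1526 barcodes, and no gap separates the sides of the limit, where 744 and 878 barcodes lie at 4 to 8% and 339 and 510 at 8 to 12%.

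The limit of 8% fell on a slope, not in a gap. Just below it, at 7 to 8%, lay 115 barcodes in replicate 1 and 154 in replicate 2. Just above it, at 8 to 9%, lay 112 and 151. Cytosolic ribosomal protein messages made up 305999 and 311586 UMIs in 1000000 nuclear-encoded UMIs (CPM) just below the limit, and 309484 and 300646 CPM just above it. The share of rich barcodes did not follow depth in 1 direction. In replicate 1 it was 12.8% below 1500 UMIs, 5.27% at 2000 to 3000 and 32.7% at 5000 to 10000, and in replicate 2 it was 23.2%, 11.9% and 43.9% in the same ranges. Rich barcodes were thus most frequent in the deepest range, which held only 98 and 132 barcodes.

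Rich barcodes carried more of each mitochondrial message in nearly the same proportions as poor ones. The cytochrome c oxidase genes of complex IV (MT-CO1, MT-CO2 and MT-CO3) gave 57.9% and 57.1% of mitochondrial UMIs in rich barcodes, and 58.0% and 57.5% in poor ones. Complex I gave 26.9% in both rich groups and 26.6% and 26.7% in the poor ones. The largest single message, MT-CO3, made up 28.4% and 27.1% of the mitochondrial UMIs of rich barcodes and 28.7% and 27.3% of those of poor barcodes. MT-ND6, the only one of the 13 encoded on the light strand, was lower in rich barcodes of both libraries, at 0.400% and 0.352% against 0.479% in both poor groups. MT-ND2 went the other way, with 2.70% and 2.42% in rich barcodes against 2.27% and 2.18% in poor. Deep DOX barcodes, those with at least 10000 UMIs, had a different mixture. There MT-CO2 gave 19.2 to 19.9% of mitochondrial UMIs on either side of the limit, against 14.8 to 15.6% in shallow barcodes.

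At equal depth, rich and poor shallow barcodes held close numbers of genes. After each barcode was thinned to 500 nuclear-encoded UMIs, the median number of genes was 348 in both groups of replicate 1. In replicate 2 it was 345 in rich and 346 in poor barcodes. The quartiles also lay within 1 gene of each other.

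Few nuclear-encoded genes differed between rich and poor barcodes by the test used here, but the number depended on the processing. UMIs were summed per library and group and compared within library by the edgeR quasi-likelihood test over 12377 genes. At a Benjamini-Hochberg adjusted p below 0.05, 28 genes (0.226%) were higher in rich barcodes and 0 were lower. Of the 28, 5 were nuclear copies of mitochondrial rRNA, whose rise the rule itself can produce (below). At a share of 0.226%, most lists of the sizes used below would hold no call, so 0 calls in a list say little alone. At an unadjusted p below 0.05, 715 were higher and 380 lower. DESeq2 called 11 higher and 1 lower, KRT19, named here because it is that single call. The median log2 fold change over all tested genes was 0.0022. Without the 123 barcodes that drew at least 20% of their nuclear-encoded UMIs from 1 chromosome (described further on), 196 genes (1.62%) were higher and 79 (0.652%) lower, of which 19 were among the 28. That fit took its spread wholly from a trend across genes. Its p-values thus do not use each gene's own spread between libraries, and a pass there is not firmer than one in the main fit. Scaled by non-mitochondrial totals without TMM factors, 138 were higher and 9 lower, and with the depth limit set on non-mitochondrial UMIs, 544 and 551. With replicate 1 left out the counts were 130 and 5, and with replicate 2 left out 61 and 28, in fits that borrowed the spread from the untreated libraries.

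In the main fit, most genes of at least 20 CPM had narrow intervals. Of 5543 genes with a mean of at least 20 CPM over the 4 sums, 5296 (95.5%) had a 95% interval of the rich-to-poor ratio that lay wholly within 2-fold in either direction. Of 1305 genes with at least 100 CPM, 1298 did, and 1275 lay wholly within 1.5-fold. Genes below 20 CPM were less certain, and over all 12377 genes 61.0% had an interval within 2-fold. These intervals rest mostly on spread borrowed across genes. Some fold changes, such as that of SHOC2, fell outside them when skewed barcodes were left out (below).

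**Figure D2:**
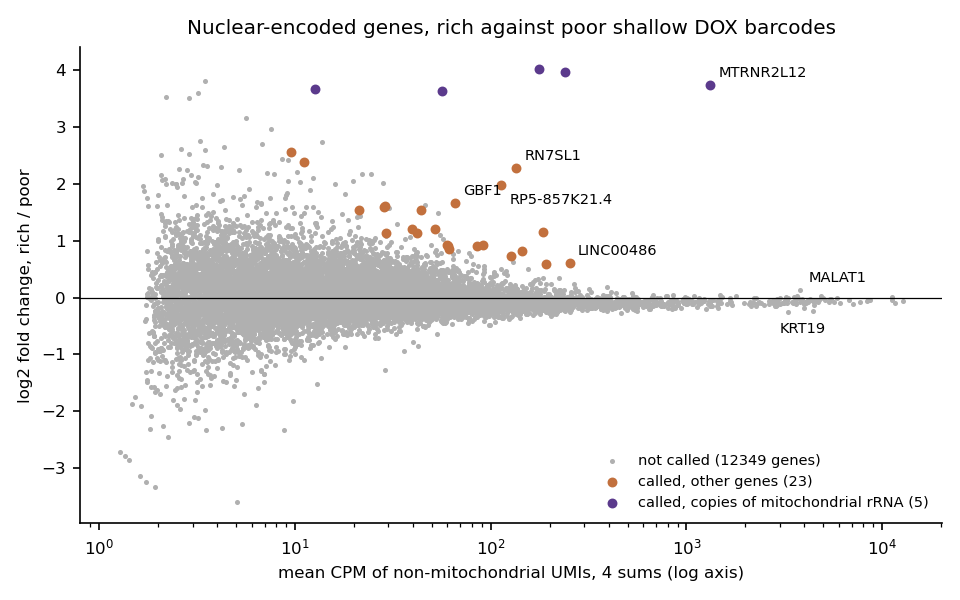
Log2 fold change of rich over poor shallow DOX barcodes (vertical axis) against mean CPM of nuclear-encoded UMIs over the 4 sums (horizontal axis, log scale), 1 point per tested gene, with the 5 called copies of mitochondrial rRNA in purple, the other 23 called genes in orange and genes not called in grey. Abundant genes such as KRT19 and MALAT1 sit close to 0, while the purple points lie between 3.63 and 4.03.

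Messages for the translation machinery made up about the same share on both sides. Cytosolic ribosomal proteins gave 302499 and 301095 CPM in rich and 301784 and 310315 CPM in poor barcodes of replicates 1 and 2. Of 82 tested, 0 passed the test, and their median log2 fold change was -0.069. RPL3, a protein of the large subunit, was at 4200 and 4498 CPM in rich and at 4507 and 4748 CPM in poor barcodes (log2 fold change -0.13, 95% interval -0.27 to 0.019). RPL24 was at 2800 and 2812 CPM in rich and at 3009 and 2955 CPM in poor. The log2 fold change of RPL24, -0.12 ± 0.065 (SE), did not pass. RPL22L1, a paralogue of a large-subunit protein, had a log2 fold change of -0.12. Of 18 translation factor and poly(A)-binding genes 0 passed, with a median of -0.068. The smallest p-values belonged to EIF3E (-0.21 ± 0.069), EIF1 (-0.17) and EIF4A1 (-0.16), all initiation factors. Both EIF3E (adjusted p = 0.023 by edgeR) and EIF1 (adjusted p = 0.0362) passed as lower without the skewed barcodes.

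Nuclear genes for mitochondrial proteins did not follow the mitochondrial genome. The respiratory chain subunits encoded in the nucleus gave 31766 and 30866 CPM in rich and 32931 and 32353 CPM in poor barcodes. Of 78 gene identifiers tested 0 passed, 9 had an unadjusted p below 0.05, and the median log2 fold change was -0.10. UQCRFS1, the iron-sulfur subunit of complex III, was at 144 and 154 CPM in rich and 175 and 185 CPM in poor barcodes (log2 fold change -0.31 ± 0.092). NDUFA2 of complex I had a log2 fold change of -0.26, and NDUFS1, another complex I subunit, of 0.49. Of 74 mitochondrial ribosomal proteins 0 passed, 13 had an unadjusted p below 0.05, and their median was -0.12. MRPL40 was at 117 and 132 CPM in rich and at 156 CPM in both poor sums (log2 fold change -0.36), MRPS36 had -0.41 and MRPL18 -0.25. Without the skewed barcodes, 6 mitochondrial ribosomal proteins (MRPL40, MRPS36 and MRPL18 among them) and 2 respiratory chain genes (UQCRFS1 among them) passed as lower. Of 36 import and upkeep genes 0 passed (median -0.080). LRPPRC, which stabilises mitochondrial messages, was at 135 and 144 CPM in rich and at 101 and 106 CPM in poor barcodes. Its log2 fold change of 0.39 ± 0.10 did not pass (adjusted p = 0.228 by edgeR) but did so without the skewed barcodes (adjusted p = 0.0049). PHB and SSBP1, a chaperone and the mitochondrial single-stranded DNA-binding protein, both had -0.18.

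Epithelial identity was plain in both groups. EPCAM, a surface marker of epithelium, was at 471 and 502 CPM in rich and at 487 and 526 CPM in poor barcodes. KRT8, KRT18 and KRT19, the simple-epithelium keratins, were among the most abundant messages. KRT19 was at 3128 and 2996 CPM in rich and 3632 and 3502 CPM in poor barcodes. Its log2 fold change was -0.26 ± 0.066 with an adjusted p of 0.228 by edgeR, and it passed by DESeq2 and in barcodes thinned to 500 UMIs (-0.17, adjusted p = 4.79e-06 by edgeR). KRT18 was at 4247 and 4005 CPM in rich against 4853 and 4589 CPM in poor barcodes (-0.23), and passed as lower in thinned barcodes too (-0.11, adjusted p = 0.013 by edgeR). DSP, a desmosome protein, was on the other side at 0.38. Of 12 tested keratin and junction genes 0 passed, and the median was -0.12. The keratins passed as lower, 3 genes in all, without the skewed barcodes, including KRT19 (adjusted p = 1.42e-05 by edgeR) and KRT18 (adjusted p = 0.000176), and 3 did so with library totals in place of TMM factors. Markers of leukocytes, fibroblasts, endothelium and red cells summed to 10.5 and 8.86 CPM in rich and to 6.64 and 8.53 CPM in poor barcodes. Of those 13 markers, 7 had no UMI in either rich group, including the leukocyte marker PTPRC and the fibroblast markers COL1A2, DCN and LUM. LYZ and COL1A1 were the only 2 with enough counts to test, and neither passed.

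Genes of the drug response did not pass the test between rich and poor barcodes, which 0.226% of all tested genes passed. CDKN1A, the p53 target that halts the cell cycle, was at 399 and 333 CPM in rich and at 410 and 372 CPM in poor barcodes (log2 fold change -0.14, 95% interval -0.31 to 0.030). GDF15, a secreted stress cytokine and p53 target, was at 544 and 490 CPM in rich and at 597 and 555 CPM in poor barcodes (-0.19 ± 0.070). Of 30 p53 targets tested 0 passed, with a median of -0.094. SERTAD1 and PLK2 had the smallest adjusted p-values among them, with log2 fold changes of -0.45 and -0.28. These genes and GDF15 passed as lower, 3 in all, without the skewed barcodes (GDF15 at -0.21, adjusted p = 0.0213 by edgeR). In untreated shallow barcodes CDKN1A was at 15.6 and 31.9 CPM in rich and 32.6 and 43.1 CPM in poor barcodes, so both DOX groups lay above both untreated groups, a difference not tested here. Shallow barcodes may also have been admitted by different rules in DOX and untreated libraries (below).

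Interferon-stimulated and secretory genes held no call either, beside 0.226% of all tested genes. The 42 type I interferon-stimulated genes summed to 4494 and 4451 CPM in rich and 4542 and 4583 CPM in poor DOX barcodes. Of 33 tested 0 passed, and the median was -0.060. IFIT1, an RNA-binding antiviral protein, was at 72.4 and 96.9 CPM in rich and at 107 and 99.4 CPM in poor barcodes (-0.30 ± 0.13). IFIH1, a sensor of double-stranded RNA, was at 27.0 and 36.0 CPM in rich and near 20 CPM in both poor groups (0.62 ± 0.21). EPSTI1 had only 1 UMI in each rich group, and its fold change of -2.45 rests on those. Of 16 tested genes of the senescence-associated secretory phenotype 0 passed (median -0.14). IL8, a neutrophil chemokine, had 8 and 3 UMIs in the rich groups, and LIF, an interleukin 6-family cytokine, had 8 and 8. GDF15, which is on this list too, was the 1 secretory gene that passed as lower without the skewed barcodes.

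Of the death and stress genes, only FOS passed. Of 27 caspase, death-receptor and apoptosome genes 0 passed, with a median of -0.042, and of 15 BCL2-family genes 0 passed, with a median of -0.086. TNFRSF10B, a TRAIL receptor, was at 40.1 and 35.4 CPM in rich and at 32.2 and 30 CPM in poor barcodes (0.24 ± 0.18). ENDOG, a mitochondrial nuclease, had -0.41, and APAF1, the apoptosome scaffold, had 0.79 but with 21 of its 57 UMIs in replicate 2 from 1 barcode. MCL1, BCL2L11 and BIK, an inhibitor and a pair of promoters of apoptosis, had log2 fold changes of -0.44, -0.75 and -0.18. In the integrated stress response 0 of 19 passed (median -0.11), with DDIT4 at -0.37, DDIT3 at -0.55 and SESN2 at 0.61. In the heat shock list 0 of 15 passed (median -0.050). BAG3, a co-chaperone, was at 57.6 and 48.2 CPM in rich and 29.6 and 26.8 CPM in poor barcodes, with a log2 fold change of 0.86 ± 0.17 and an adjusted p of 0.0808 by edgeR. Of its 87 rich UMIs in replicate 2, 40 came from 1 barcode, and without the skewed barcodes its log2 fold change was 0.068. DNAJA1 and HSPA8 had -0.20 and -0.10, and DNAJA1 passed as lower without the skewed barcodes (adjusted p = 0.00742 by edgeR). Of 18 immediate early genes only FOS passed (below), while JUND and IER2 had -0.24 and -0.29 and the list's median was -0.016. In the fit without the skewed barcodes FOS did not pass (adjusted p = 0.445 by edgeR), 1 other member passed as higher and 3 passed as lower, including JUND (adjusted p = 0.00991) and IER2 (adjusted p = 0.039).

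Proliferation genes held no call, beside 0.226% of all tested genes. The S-phase list summed to 1627 and 1691 CPM in rich and 1695 and 1813 CPM in poor barcodes, and the G2/M list to 3616 and 3651 against 3559 and 3933 CPM. Of 41 and 54 tested, 0 passed in either list, with medians of -0.13 and -0.011. PCNA, the replication clamp, was at 218 and 214 CPM in rich and 223 and 243 CPM in poor barcodes. NASP, CLSPN and RPA2 of the S-phase list had log2 fold changes of -0.28, -0.60 and -0.30. MKI67, a marker of cycling cells, was at 85.5 and 62.0 CPM in rich and 48.9 and 54.5 CPM in poor barcodes (0.45 ± 0.17), and 21 of its 98 rich UMIs in replicate 1 came from 1 barcode. CENPF, a kinetochore protein, had 0.47 with 21 of 86 UMIs in replicate 1 from 1 barcode, and HN1 had -0.20. NASP (adjusted p = 0.00493 by edgeR) and 2 G2/M genes, HN1 (adjusted p = 0.012) among them, passed as lower without the skewed barcodes. LMNB1, a lamin that is low in senescent cells, was at 31.4 and 22.2 CPM in rich and 22.1 and 27.0 CPM in poor barcodes, and 16 of its 36 rich UMIs in replicate 1 came from 1 barcode.

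Nuclear-retained RNAs, which mark intact nuclei, were not called. MALAT1, a long non-coding RNA of nuclear speckles, was at 3837 and 4182 CPM in rich and at 3233 and 3963 CPM in poor barcodes (log2 fold change 0.13, 95% interval -0.034 to 0.29). Single barcodes held 660 of the 4398 rich MALAT1 UMIs in replicate 1 and 1082 of 7552 in replicate 2. NEAT1, the scaffold of paraspeckles, was at 127 and 266 CPM in rich and at 174 and 147 CPM in poor barcodes, lower in replicate 1 and higher in replicate 2. TUG1 had a log2 fold change of 0.47. The median of the 5 tested was 0.26, the highest of the lists other than the mitochondrial copies and markers of other cell types. That median is the value of NEAT1 itself, whose direction differed between the libraries. With poor below 4% and rich at least 12% the list's median was -0.023. Without the skewed barcodes, MALAT1 (0.19, adjusted p = 0.0099 by edgeR) and NEAT1 (0.33, adjusted p = 0.013) passed as higher. Both lie on chromosome 11, to which 13 poor barcodes and 1 rich barcode were skewed. MALAT1 alone gave 26.5% of nuclear-encoded UMIs in a poor one. Leaving these barcodes out removes counts of the genes themselves, more from the poor side, so that fit cannot decide whether they differ.

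The remaining lists held no call, beside 0.226% of all tested genes. Glycolysis had 17 genes tested with a median of -0.016, with LDHA at -0.18, HK2 at 0.72 and GPI at 0.11. The cytoskeleton had 20 tested with a median of -0.067, with MYH9, the non-muscle myosin heavy chain, at 0.42, MYL6 at -0.18 and TUBB4B at -0.20. In 29 genes of translocation and folding in the endoplasmic reticulum the median was -0.0031, with CANX at 0.24, PDIA4 at 0.29 and SPCS3 at -0.23. In 23 lysosome genes it was -0.016, with ATP6V1A at 0.33, CTSZ at -0.21 and LAMP1 at 0.15. All 4 medians may be set against 0.0022 over all genes. LDHA (adjusted p = 0.0188 by edgeR), MYL6 (adjusted p = 0.0227) and TUBB4B (adjusted p = 0.0162) passed as lower without the skewed barcodes, and no gene of the endoplasmic reticulum or lysosome lists did.

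The largest fold changes among the called genes were in nuclear copies of the mitochondrial 16S ribosomal RNA. The MTRNR2L genes are nuclear pseudogene-like copies that closely match the mitochondrial RNA, so reads of one may be counted for the other, and the MT- genes of these files are the 13 protein-coding ones. MTRNR2L12 was at 2324 and 2595 CPM in rich barcodes and at 159 and 200 CPM in poor ones, a log2 fold change of 3.75 ± 0.079 (adjusted p = 1.06e-10 by edgeR). MTRNR2L1 (on chromosome 17, 22022437 to 22023991, hg19) was at 476 and 424 against 24.5 and 31.7 CPM, and MTRNR2L8 at 374 and 291 against 14.3 and 25.7 CPM. Their log2 fold changes were 3.97 ± 0.13 and 4.03 ± 0.21. MTRNR2L2 and MTRNR2L10 were called too. All 7 such genes tested lay between 3.54 and 4.03, of which MTRNR2L6 and MTRNR2L9 did not pass, and MTRNR2L12 was found in 548 and 1006 rich barcodes. Their counts are therefore uncertain as those of nuclear genes. Because the groups were formed by mitochondrial share, the rule itself can produce such a rise. The tests of these genes thus give no independent support for a difference in nuclear RNA.

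One further called gene lies over mitochondrial copies. RP5-857K21.4 is annotated as a pseudogene on chromosome 1 (521451 to 763176, minus strand, hg19). Its span holds 7 copies of mitochondrial protein genes, among them MTND1P23, MTND2P28, MTCO1P12 and MTCO3P12, all on the opposite strand. It was at 199 and 164 CPM in rich and at 46.9 and 42.2 CPM in poor barcodes (log2 fold change 1.99 ± 0.11, adjusted p = 2.19e-06 by edgeR). It was spread over 149 and 213 rich barcodes, with no more than 6 and 12 UMIs from any of them, and it passed under all 17 alternatives that kept both libraries and changed the barcodes, genes or test. Whether its rise follows from the rule, as may hold for the rRNA copies, was not tested.

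Several short and repeat-rich RNAs were also higher. RN7SL1, the RNA of the signal recognition particle, was at 99.5 and 358 CPM in rich and at 36.5 and 47.4 CPM in poor barcodes (2.29 ± 0.23, adjusted p = 0.000841 by edgeR). In replicate 2, 514 of its 646 UMIs came from 1 barcode, and with the top barcode of each sum left out its log2 fold change was 0.90 (adjusted p = 7.61e-07). 7SK, the RNA that holds the elongation factor P-TEFb inactive (ENSG00000260682), was at 253 and 261 CPM against 102 and 122 CPM (1.16 ± 0.097). Single barcodes gave 100 of its 290 rich UMIs in replicate 1 and 171 of 471 in replicate 2. Without the skewed barcodes its log2 fold change was 0.35, still past the threshold (adjusted p = 0.0241 by edgeR). LINC00486 (chromosome 2, 33050426 to 33151760) is a long non-coding RNA. It was at 259 and 358 CPM in rich and 180 and 213 CPM in poor barcodes (0.61 ± 0.083, adjusted p = 0.011 by edgeR), and no rich barcode held more than 11 of its UMIs. RN7SL1 and 7SK have many near-identical copies in the genome, so their counts are uncertain.

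Many of the other called genes drew a large part of their rich UMIs from a few barcodes. Of all 28, 19 passed without the skewed barcodes and 9 did not. On chromosome 10 lie 6 of the 28, where 492 genes were tested, namely GBF1, VTI1A, CTBP2, TCF7L2, SHOC2 and ADD3. A single rich barcode of replicate 2, with 7592 UMIs and a mitochondrial share of 28.5%, drew 68.5% of its nuclear-encoded UMIs from chromosome 10. It held 152 of the 315 rich UMIs of GBF1, a Golgi exchange factor, 90 of 237 of SHOC2 and 69 of 180 of ADD3. GBF1 was at 72.4 and 128 CPM in rich and 33.5 and 28.0 CPM in poor barcodes (1.67 ± 0.21). Without the skewed barcodes its log2 fold change was 0.72 (adjusted p = 0.0092 by edgeR), whereas that of SHOC2 was 0.042 and that of ADD3 was 0.32, neither past the threshold.

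Genes of chromosomes 2, 12 and 14 drew on such barcodes as well. BMPR2, a receptor of bone morphogenetic proteins, drew 109 of its 212 rich UMIs from barcodes skewed to chromosome 2, against 20 of 345 in poor barcodes. It was at 41.0 and 91.4 CPM in rich and at 21.7 CPM in both poor sums (1.54 ± 0.23). BMPR2 passed without the skewed barcodes (0.73). FAM117B (1.54), DGKD (1.20), AGAP1 and HDAC4 lie on that chromosome too, and between 35.7% and 54.3% of their rich UMIs came from such barcodes. On chromosome 12, ETV6, a transcriptional repressor, had 44 of its 64 rich UMIs in replicate 1 from 1 barcode (1.61 ± 0.26), and passed without the skewed barcodes (0.96). FOS, an immediate early transcription factor, had 101 of its 118 rich UMIs in replicate 2 from 1 barcode skewed to chromosome 14. It was at 21.8 and 65.3 CPM in rich and 10.4 and 16.4 CPM in poor barcodes (1.60 ± 0.24, adjusted p = 0.022 by edgeR), and without its top barcode in each sum its log2 fold change was 0.19. GPR98, on chromosome 5, had all 27 of its rich UMIs in replicate 1 from 1 barcode, and its log2 fold change turned to -1.14 without the top barcode of each sum. PTPRG, a receptor phosphatase on chromosome 3, was at 40.1 and 107 CPM in rich and 26.4 and 33.7 CPM in poor barcodes (1.20 ± 0.21). Of its 240 rich UMIs, 45 came from barcodes skewed to chromosome 3, and it passed without all skewed barcodes (1.02). FRMD5 lies on chromosome 15, to which no rich barcode was skewed. It was at 87.3 and 156 CPM in rich and 53.5 and 70.2 CPM in poor (0.92 ± 0.13). Its log2 fold change was 0.98 without the skewed barcodes. In thinned barcodes FRMD5 (0.37 ± 0.21), BMPR2 (0.58 ± 0.33) and ETV6 (0.82 ± 0.39) did not pass, while PTPRG did (1.03 ± 0.26). Their standard errors were wider there than in the main fit, so not passing does not show that a rise was absent. The UMIs counted here as from skewed barcodes are those from barcodes skewed to the gene's own chromosome.

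Barcodes skewed to 1 chromosome were found on both sides of the limit. In a typical shallow barcode the most represented chromosome gave 10.1 to 10.2% of nuclear-encoded UMIs (medians of the 4 groups). At 20% or more, 6 of 780 rich barcodes (0.769%, exact interval 0.283 to 1.67%) and 57 of 5230 poor barcodes (1.09%, 0.826 to 1.41%) were skewed in replicate 1, and 15 of 1343 (1.12%, 0.626 to 1.84%) and 45 of 4803 (0.937%, 0.684 to 1.25%) in replicate 2. The intervals of rich and poor overlap in each library. The 21 rich ones were skewed to 10 different chromosomes and the 102 poor ones to 20. The highest share of 1 chromosome was 68.5% in rich and 84.9% in poor barcodes, the latter for chromosome 3. In most of them the skew did not come from 1 gene. A median of 229 genes of that chromosome were detected in the rich ones and 196.5 in the poor, and the top gene gave a median of 1.85% and 1.88% of UMIs. Without the top gene, 57 of 63 skewed barcodes in replicate 1 and 53 of 60 in replicate 2 still reached 20%. In some, MALAT1 gave most of the skew, as in a poor barcode with 30.5% from chromosome 11 and 26.5% from MALAT1.

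Skewed barcodes were deeper than the median shallow barcode. Rich ones held a median of 5574 UMIs and poor ones 2507. Among barcodes with fewer than 1500 UMIs, 0 of 473 and 0 of 1112 rich barcodes were skewed, which allows shares of up to 0.777% and 0.331% (upper exact bounds), against 4 of 3235 and 8 of 3674 poor ones. At 5000 to 10000 UMIs it was 4 of 32 and 8 of 58 rich, and 14 of 66 and 9 of 74 poor barcodes. In deep DOX barcodes 29 of 1990 (1.46%) and 24 of 1854 (1.29%) were skewed, so the trait was not particular to shallow ones. In untreated shallow barcodes 1 of 454 and 0 of 189 were skewed, and in untreated deep ones 1 of 4247 and 0 of 2339. Barcode numbers were forced in the DOX libraries, so shallow barcodes of the treatments may have been admitted differently. The cause of the skew was not tested.

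**Figure D3:**
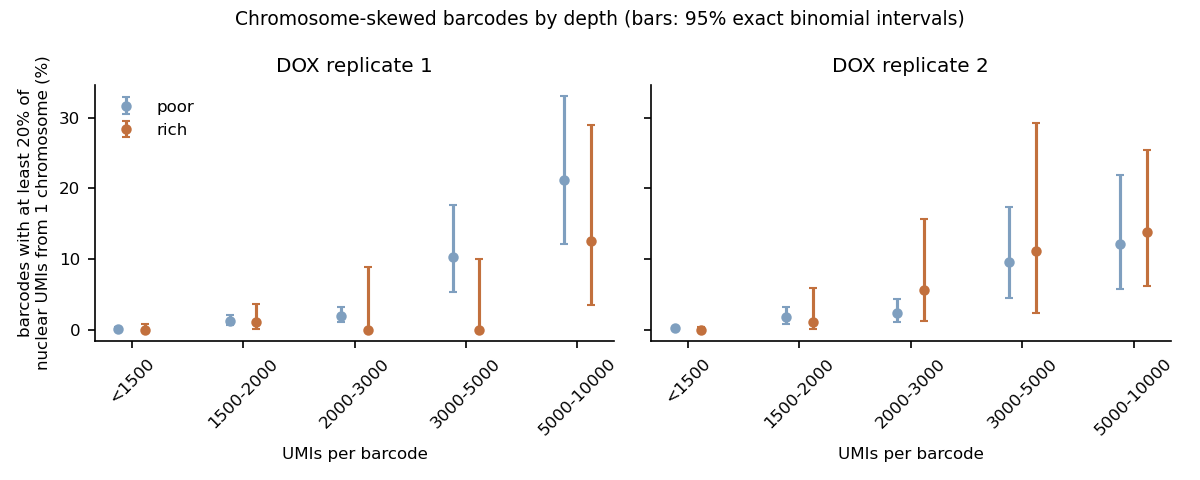
Share of barcodes that drew at least 20% of nuclear-encoded UMIs from 1 chromosome (vertical axis, percent) by UMIs per barcode (horizontal axis) in DOX replicates 1 and 2, rich in orange and poor in blue, with 95% exact binomial intervals as bars. Among poor barcodes the share goes from 0.124% and 0.218% in the lowest bin to 21.2% and 12.2% in the highest, and the intervals of the classes overlap in each bin.

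Long genes had higher rich-to-poor ratios than short ones, a split chosen after the values were seen. Among genes of at least 20 CPM with a position in the annotation (99.2%), the 418 that span 200 kb or more had a median log2 fold change of 0.21, in replicates 1 and 2 alone 0.044 and 0.35. The 1110 genes under 10 kb had a median of -0.10, against -0.031 over all. Without the skewed barcodes the same medians were 0.30 and -0.12. Of these 5501 genes, 139 were called higher and 77 lower in that fit. Of the 418 long genes 77 were higher and 1 was lower, and of the 1110 short ones 2 were higher and 41 lower. Deep DOX barcodes shared the order, with medians of 0.27 for the long genes and -0.85 for the short ones. In untreated shallow barcodes the medians were 0.20 and -0.21, so the order was not particular to shallow DOX barcodes. TBC1D5 is a Rab GTPase-activating protein that spans chromosome 3 from 17198654 to 18486309. It was among the long genes called (named after its values were seen). TBC1D5 was at 70.7 and 89.2 CPM in rich and 44.3 and 42.1 CPM in poor barcodes. Its log2 fold change was 0.86 ± 0.15 in the main fit and 0.50 ± 0.24 in thinned barcodes, where it did not pass.

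Across finer steps of mitochondrial share most lists kept close levels in shallow barcodes up to 32%, and some were lower in the last bin. In the bin from 0 to 0.5%, cytosolic ribosomal messages were at 296493 and 305505 CPM, and in the bin from 16 to 32% at 300639 and 308124 CPM. Only above 32%, with 63 and 89 barcodes, did replicate 1 lie lower, at 270093 CPM, while replicate 2 was at 299287 CPM. The p53 targets went from 3344 and 3161 CPM in the lowest bin to 3163 and 3070 CPM at 16 to 32%, and were at 3389 and 2363 CPM above 32%. Mitochondrial ribosomal proteins went from 9567 and 9274 CPM in the lowest bin to 8236 and 7221 CPM in the highest. By contrast the mitochondrial rRNA copies went from 40.0 and 47.6 CPM in the lowest bin to 11445 and 14318 CPM in the highest. LINC00486 went from 182 and 197 to 449 and 674 CPM between the same bins.

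**Figure D4:**
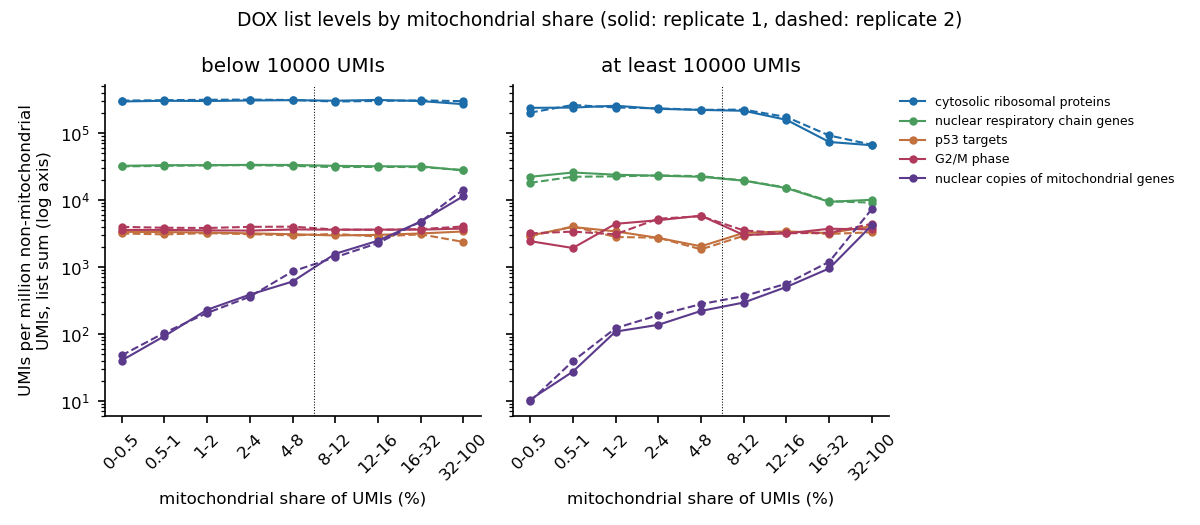
Summed level of 5 gene lists in CPM of nuclear-encoded UMIs (vertical axis, log scale) by mitochondrial share of UMIs (horizontal axis, percent) in shallow (left) and deep (right) DOX barcodes, solid lines for replicate 1 and dashed for replicate 2, with the limit of 8% dotted. In shallow barcodes 4 lists move little beside the mitochondrial copies, which climb, whereas in deep barcodes cytosolic ribosomal messages go from 221716 and 222398 CPM at 4 to 8% down to 73618 and 92036 CPM at 16 to 32%.

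Deep DOX barcodes, divided at the same 8%, looked unlike this for many genes, though long genes again had higher ratios than short ones. There 636 and 728 barcodes were rich and 1354 and 1126 poor, and of 21507 genes tested 5711 (26.6%) were higher and 6785 (31.5%) lower in rich ones. The deep sums held 38747949 and 49998520 UMIs in rich barcodes, far more than the shallow ones, so counts of calls are not comparable and the difference between the classes was tested itself. The interaction of mitochondrial class with depth passed for 2481 of 19214 genes (12.9%), 2190 of them with a rich-to-poor ratio larger in shallow than in deep barcodes (11.4%) and 291 smaller (1.51%). Scaled by library totals alone, the split was 963 against 698.

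The interaction was widespread in the growth lists. It passed, as larger in shallow barcodes, for 77 of 84 cytosolic ribosomal proteins, 74 of 79 nuclear respiratory chain genes, 58 of 77 mitochondrial ribosomal proteins, 44 of 54 G2/M genes and 29 of 41 S-phase genes. In the deep barcodes alone the median log2 fold changes of these lists were -0.84, -0.95, -0.99, -1.19 and -1.13, against -0.069, -0.10, -0.12, -0.011 and -0.13 in shallow ones. MKI67 had a log2 fold change of -1.07 in deep and 0.45 in shallow barcodes (interaction adjusted p = 0.000634 by edgeR), and PCNA -1.13 and -0.15 (adjusted p = 0.00063). The p53 targets differed the other way for 8 of 31 genes and this way for 1. GDF15 had 0.22 in deep and -0.19 in shallow barcodes (adjusted p = 0.00415). The interaction did not pass for CDKN1A (adjusted p = 0.811) or for KRT19 (adjusted p = 0.515). The mitochondrial rRNA copies differed by more in shallow barcodes for 8 of 9, with MTRNR2L12 at 3.75 in shallow and 1.04 in deep. MALAT1 (0.13 and 0.59, adjusted p = 0.00678) and NEAT1 (0.26 and 1.00, adjusted p = 0.0431) had a smaller rich-to-poor ratio in shallow than in deep barcodes.

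**Figure D5:**
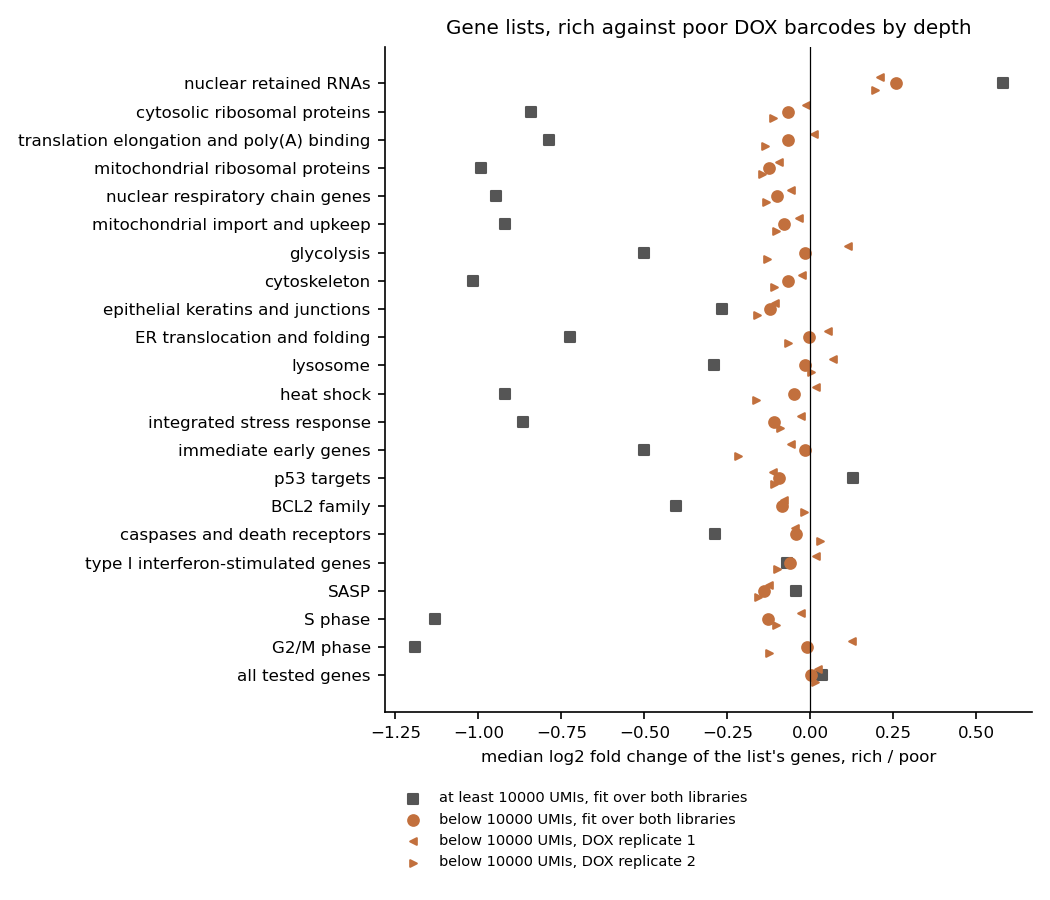
Median log2 fold change of rich over poor DOX barcodes (horizontal axis) for 21 gene lists and for all tested genes (vertical axis), in shallow barcodes (orange circles for both libraries, triangles for each library) and in deep barcodes (grey squares). Orange symbols stay between -0.22 and 0.26, while grey squares reach -1.19 for G2/M genes.

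Untreated libraries had few shallow barcodes, 109 rich and 345 poor in replicate 1 and 46 rich and 143 poor in replicate 2. In these, 16 genes (0.234%) were higher and 19 (0.278%) lower in rich barcodes among 6836 tested (0.512% in all), and MTRNR2L12 had a log2 fold change of 3.03 and RP5-857K21.4 of 1.76, both called. The untreated groups were formed by the same mitochondrial limit, so the caution on these 2 genes applies here too. The difference between DOX and untreated in the rich-to-poor ratio passed for 1 of 10873 genes (0.0092%), and for 637 at an unadjusted p below 0.05. DESeq2 called 0, with 116 at an unadjusted p below 0.05. The gene was NCL, which encodes the nucleolar protein nucleolin, named because it is the only call. It was at 921 and 860 CPM in rich and 912 and 894 CPM in poor DOX barcodes, and at 1184 and 1256 CPM in rich and 2008 and 2734 CPM in poor untreated ones.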

How the data were processed

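The authors aligned reads to hg19 with Cell Ranger (7.2.0 per the file headers, 7.0.0 per the submitters' processing notes), with 8000 barcodes forced per DOX library, and deposited raw UMI counts per gene and barcode. By default this program version counts intronic reads, but the setting is not given in the sources used here. All barcodes were kept and no doublets were removed. The 8% limit equals the study's own filter on mitochondrial share. UMIs of 1146105 to 8739865 per sum came from genes other than the 13 MT- genes, and binomial intervals cover counting error only. Sums were compared with edgeR 4.0.16 in R 4.3.3 (TMM factors on non-mitochondrial totals, filterByExpr, quasi-likelihood test) with library as a block, because both sums of a pair come from the same library. Deviations of paired sums correlated at r = 0.144 over 2612 genes. The main fit left 1 residual degree of freedom and borrowed spread across genes with 10.8 prior degrees of freedom. The prior was infinite without skewed barcodes, without top barcodes, in thinned barcodes and with no filter on low counts. It was also infinite with poor below 4% and rich at least 12%, and with 1 DOX library left out. DESeq2 1.42.0 was an alternative. The code was tested on simulated data. Coordinates come from GENCODE v44lift37, matched by Ensembl ID. Named genes were the 10 largest rises and falls that passed with a mean of at least 20 CPM and the same sign in both libraries, mitochondrial copies aside (0 falls qualified), 3 members per list with the smallest adjusted p, and 7 study or nuclear markers; other names were chosen after their values were seen. Members and gene lists were chosen with earlier results of these data known. Skewed-barcode and gene-span splits were added after seeing the data.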

Additional observations from a re-analysis of the deposited data

Results flagged for a closer look

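NCL had a rich-to-poor ratio that differed between DOX and untreated shallow barcodes, by 0.92 ± 0.14 on the log2 scale (adjusted p = 0.021 by edgeR, interaction test). With the untreated replicate 1 left out it was no longer called, and the number of called genes ranged from 0 to 17 when libraries were left out in turn.

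Between shallow and deep DOX barcodes, 2481 genes had different rich-to-poor ratios by the interaction test.

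Barcodes skewed to 1 chromosome made up 1.05% of shallow barcodes in DOX replicate 1 and 0.976% in replicate 2, against 1 of 454 and 0 of 189 in the untreated libraries, where a count of 0 of 189 allows up to 1.93% (upper exact bound). In deep DOX barcodes the share was 1.46% and 1.29%. Shallow barcodes may have been admitted differently in DOX libraries, where the barcode number was forced. Skewed barcodes belong to no comparison of the design. No test for an unusual library was made, since each group has 2 libraries.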

How the results depend on the processing

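The number of genes higher and lower in rich barcodes, 28 and 0, moved with most settings. It was 11 and 1 with the DESeq2 test, 138 and 9 with non-mitochondrial totals in place of TMM, 155 and 71 with no filter on low counts, 8 and 0 without the library as replicate block, and 33 and 4 at a 5% or 21 and 9 at a 15% limit. It was 168 and 32 with poor below 4% and rich at least 12%, 18 and 4 in depth-matched barcodes, 12 and 3 in barcodes thinned to 500, 16 and 0 without the mitochondrial copies, 48 and 1 with 4 libraries in the fit, and 14 and 0 with deep barcodes in the fit. With fewer than 10000 non-mitochondrial UMIs it was 544 and 551, and with fewer than 5000 UMIs 19 and 0. Alternatives added after seeing the data gave 196 and 79 without skewed barcodes and 90 and 4 without each gene's top barcode. Leaving out 1 DOX library gave 61 to 130 higher and 5 to 28 lower. Of the 28 calls, 11 were shared with DESeq2, 12 with thinned barcodes and 20 with the fit without top barcodes. Only 12 of the 28 were shared with the fit below 5000 UMIs. The interaction with treatment, 1 gene, gave 0 with a replicate block by number and with DESeq2, 24 with no filter, and 0 to 17 without 1 library. The interaction with depth, 2481 genes, gave 2412 with no replicate block and 3894 with no filter. The rich share was 20.8% and 31.7% at a 5% limit and 5.01% and 9.44% at a 15% limit. Median genes at equal depth, rich over poor, were 0.996 at 300 UMIs and 0.997 at 1000 in replicate 1 and 1.00 at 300 in replicate 2. Skewed shares were 1.56% and 1.37% at a 15% limit and 0.582% and 0.602% at 30%. Among called genes FOS turned to -0.84 and FGF12 to -1.28 at the 15% limit, TCF7L2 to -0.17 and AGAP1 to -0.062 below 5000 UMIs, and GPR98 to -1.14 without the top barcodes, none past the threshold. Over all 21 lists other than mitochondrial copies and other cell types, medians stayed between -0.27 and 0.40 in each alternative. The cause of these shifts was not tested. Low counts limit genes under 20 CPM.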
